A study of Mus musculus with 2 samples.

Results

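The S100 genes encode small calcium-binding proteins, and 10 of them, mainly genes of epithelium, stroma and myeloid cells, were followed in mouse vagina: *S100a1*, *S100a4*, *S100a6*, *S100a8*, *S100a9*, *S100a10*, *S100a11*, *S100a13*, *S100a14* and *S100a16*. Each gene was taken with every Affymetrix probe set whose annotation names that gene alone. This gave 13 probe sets for 9 of the 10 genes, among 18193 genes that had a probe set of their own on the array. The only probe set listed for *S100a11* is annotated to a pseudogene and a predicted gene as well, so *S100a11* had no value of its own. RNA came from whole vagina of *Fbln5*-/- mice, which lack fibulin-5, an elastic fibre protein, and of wild-type (WT) mice, all female and of C57/Bl6 background. The labels give an age of 6 months. Animals of both genotypes had been ovariectomized and then given estradiol at 50 µg/kg/d for 3 d, so the arrays hold no untreated tissue. Ovariectomy is given as 11 d in the labels of the samples and as 2 wks in the series text. There was 1 array per genotype. With no replicate array, no test between genotypes was made, and every difference below is a difference between a pair of arrays.

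S100 proteins work mostly as dimers that change shape when their EF-hand loops bind calcium and then attach to target proteins. Inside cells they bind annexins, cytoskeletal proteins and enzymes. Some are released and act as alarmins on receptors such as RAGE (*Ager*) and *Tlr4*. The S100A8 and S100A9 proteins form a heterodimer, calprotectin, which is abundant in neutrophils, is made by stratified epithelium under stress, and starves microbes of zinc and manganese. Most S100 genes lie at the ends of the epidermal differentiation complex, a run of genes for cornified cell proteins on mouse chromosome 3.

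Signals are the authors' MAS5 intensities, scaled here so that the median of each array is the same. A probe set counted as measured when at least 1 array reached 100, and a gene was read at its brightest probe set. Ratios are *Fbln5*-/- over WT. *Fbln5* itself had a signal of 30.4 on the *Fbln5*-/- array and 410.4 on the WT array. That decrease is at least 4.10-fold with the lower signal taken as 100. Markers of the estrogen-treated vagina were present on both arrays, with all 10 genes of the list (*Esr1*, *Pgr*, *Krt5*, *Krt14*, *Krt13*, *Krt10*, *Trp63*, *Pax8*, *Hoxa13* and *Hoxd13*) at 100 or more. The 5′ control probe set of *Gapdh* was 21.7-fold lower on the *Fbln5*-/- array and its 3′ control differed by a log2 ratio of 0.05. For *Actb* the 5′ control was 3.66-fold lower and the 3′ control had a log2 ratio of −0.18. The 5′ signal of these controls thus differed far more than the 3′ signal, and its part in the results below was not tested.

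Of the 9 S100 genes measured, *S100a8* and *S100a9* passed 2-fold upward on the *Fbln5*-/- array and no gene passed it downward. Over all 11934 genes measured, 7.21% were 2-fold or more higher and 4.77% were 2-fold or more lower. The 7 other S100 genes were within 1.25-fold, a band that held 45.3% of all genes. *S100a14* left this band under other scalings of the arrays. When only genes with a signal of at least 500 on each array were taken, as 8 of the 9 S100 genes have, the band held 53.8%. The median log2 ratio was 0.10 over the 9 genes and 0.16 over all genes.

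**Figure D1:**
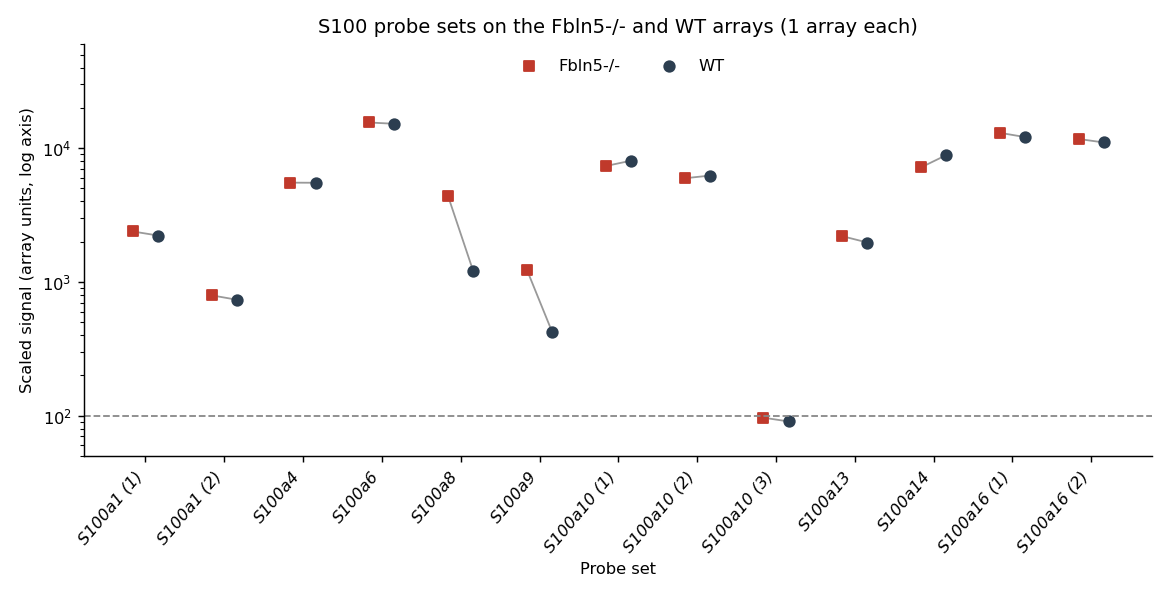
Scaled signal (array units, log axis) of the 13 S100 probe sets on the *Fbln5*-/- array (red squares) and the WT array (dark circles), 1 array each; numbers in brackets count the probe sets of a gene from the brightest, and the dashed line marks a signal of 100. *S100a8* (4372 and 1198) and *S100a9* (1231 and 422.5) slope, and the other pairs are nearly level.

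*S100a8*, the smaller chain of calprotectin, had a signal of 4372 on the *Fbln5*-/- array and 1198 on the WT array. This is a 3.65-fold difference, a log2 ratio of 1.87. *S100a9*, its partner chain, had a signal of 1231 on the *Fbln5*-/- array and 422.5 on the WT array. This is a 2.91-fold difference, a log2 ratio of 1.54. Both chains were thus higher on the same array, with log2 ratios 0.33 apart. Of all genes measured, 239 had a log2 ratio at least as high as *S100a8* and 334 one at least as high as *S100a9*. Each gene has 1 probe set of its own, so neither difference could be compared with a further probe set. In whole tissue, more cells that express these genes and more RNA per cell cannot be told apart.

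*S100a8* and *S100a9* stand side by side in the gene order and are read from opposite strands. Their upstream sequences are shown because these were the S100 genes that moved. They are the 250 bases before the start site in the RefSeq promoter table (GRCm38.p6), 5′ to 3′ on the strand of the gene. *S100a8* lies on the plus strand (chr3:90668821-90669070) and *S100a9* on the minus strand (chr3:90695722-90695971). Capitals mark a TATA box (TATAAA) in *S100a8* and a C/EBP motif (TTGCNNAA) in *S100a9*.
S100a8: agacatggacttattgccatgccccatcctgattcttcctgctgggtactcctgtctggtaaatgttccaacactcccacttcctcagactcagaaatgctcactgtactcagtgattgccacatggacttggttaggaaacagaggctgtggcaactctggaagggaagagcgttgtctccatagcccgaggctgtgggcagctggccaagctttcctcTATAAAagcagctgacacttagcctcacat
S100a9: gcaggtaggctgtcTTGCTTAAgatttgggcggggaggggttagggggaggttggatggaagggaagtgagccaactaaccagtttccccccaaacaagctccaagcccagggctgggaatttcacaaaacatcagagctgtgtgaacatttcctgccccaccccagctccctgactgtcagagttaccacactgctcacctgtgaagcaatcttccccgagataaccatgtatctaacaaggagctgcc

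The AP-1 motif (TGANTCA) was searched as well, and all 3 motifs were read on both strands, and the motifs do not overlap in these windows. The TATA box of *S100a8* spans bases −30 to −25 from the start, and the C/EBP match of *S100a9* spans bases −236 to −229. The windows of *S100a8* and *S100a9* thus hold none of the 3 motifs in common. Over 32851 promoters of the table, 12.4% hold the TATA box, 9.56% the C/EBP motif and 6.75% the AP-1 motif in the same window. Of the 10 S100 genes, 8 matched the table, all but *S100a10* and *S100a14*, with 9 promoters. *S100a4*, whose signal was level, has a TATA box at bases −31 to −26. AP-1 matches were found in *S100a11* (2 of them) and in 1 of the 2 promoters of *S100a16*. A match is a description of the letters only.

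*S100a6* and *S100a4* were level between the arrays. *S100a6*, or calcyclin, a marker of proliferating and stromal cells, had a signal of 15535 on the *Fbln5*-/- array and 15187 on the WT array (log2 ratio 0.03). *S100a4*, also known as fibroblast-specific protein and a binder of non-muscle myosin, had 5515 on the *Fbln5*-/- array and 5505 on the WT array (log2 ratio 0.00). Both genes are read from 1 probe set. With other scalings of the arrays the log2 ratio went down to −0.09 for *S100a6* and −0.10 for *S100a4*, so neither has a settled direction.

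*S100a10*, which forms a heterotetramer with annexin A2, had 7340 on the *Fbln5*-/- array and 8047 on the WT array at its brightest probe set (log2 ratio −0.13). Its next probe set had 5945 on the *Fbln5*-/- array and 6227 on the WT array (−0.07). The last was under 100 on both arrays, with 96.6 on *Fbln5*-/- and 90.4 on WT, and gets no fold. It was the only S100 probe set of the 13 that did not pass the limit of 100. The probe set shared by *S100a11*, a keratinocyte S100 that binds annexin A1, with 2 further annotations had 19086 on the *Fbln5*-/- array and 18483 on the WT array. It cannot be assigned to *S100a11* and was not counted.

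*S100a1*, best known from heart and skeletal muscle, had 2381 on the *Fbln5*-/- array and 2220 on the WT array at its brighter probe set (log2 ratio 0.10). The other probe set had 793.0 on the *Fbln5*-/- array and 735.1 on the WT array (0.11). *S100a13*, which takes part in the release of fibroblast growth factor and interleukin-1 alpha without a signal peptide, had 2196 on the *Fbln5*-/- array and 1968 on the WT array (0.16). *S100a1* and *S100a13* start head to head on opposite strands in the gene table. The pair had log2 ratios close to each other and to the median of all genes, and that of *S100a1* turned to −0.0045 under another scaling.

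*S100a14*, an S100 of stratified epithelium, had 7174 on the *Fbln5*-/- array and 8858 on the WT array. It was 1.23-fold lower (log2 ratio −0.30), the largest decrease among the 9 genes and inside the 1.25-fold band. *S100a16*, its close relative and neighbour, had 13004 on the *Fbln5*-/- array and 12087 on the WT array at its brighter probe set (0.11), and 11693 and 11012 in the same order at the other (0.09). *S100a6* and *S100a16* lie near the top of the scale, since the brightest probe set had 22877 on the *Fbln5*-/- array and 22113 on the WT array. How far ratios are compressed at such signals was not tested.

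Probe sets of 1 gene gave nearly the same ratio where several could be read. The log2 ratios of a gene's probe sets spanned 0.01 in *S100a1*, 0.02 in *S100a16* and 0.07 in *S100a10*. Over 4114 genes that had several probe sets with at least 100 on each array, the median span was 0.47, and 10.7% spanned under 0.1. The pooled SD between probe sets of a gene was 0.52 on the log2 scale. This spread is between probes on the same arrays and holds no variation between animals, so it gives no error for a difference between genotypes.

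**Figure D2:**
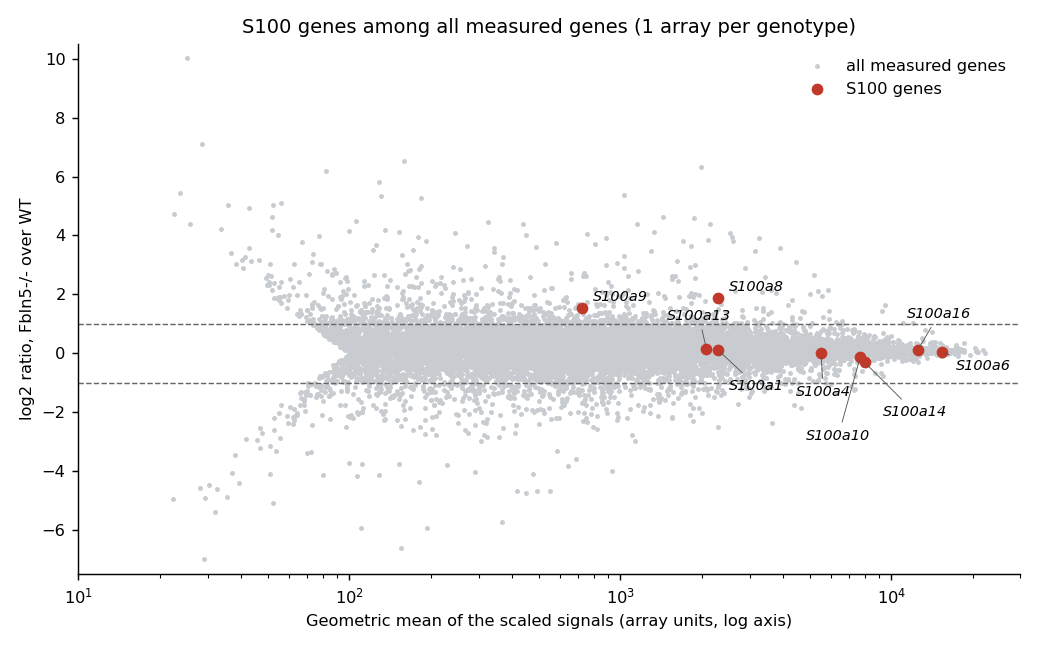
Log2 ratio (*Fbln5*-/- over WT, vertical) against the geometric mean of both scaled signals (log axis, horizontal) for the 11934 measured genes (grey) and the 9 S100 genes (red), 1 array per genotype; dashed lines mark 2-fold. *S100a8* (1.87) and *S100a9* (1.54) lie above the line, and the other 7 lie between −0.30 and 0.16.

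None of the other S100 genes passed 2-fold in either direction once signals under 100 were set to 100. *S100a3*, known from the hair cuticle, had 1658 on the *Fbln5*-/- array and 2980 on the WT array (log2 ratio −0.85). It was the S100 gene with the lowest ratio and stayed within 2-fold. *S100g*, a vitamin D and estrogen responsive calcium buffer, had 603.3 on the *Fbln5*-/- array and 410.9 on the WT array (0.55). *S100b*, an S100 of Schwann cells and adipocytes, had 129.3 on the *Fbln5*-/- array and 60.1 on the WT array, at least 1.29-fold higher (2.15-fold as measured), and its other probe set was under 100 on both.

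*S100b* is listed with other cell types in the sample. Of 8 adipocyte markers, 7 had a probe set and 4 were measured. All 4 (*Adipoq*, *Fabp4*, *Lpl* and *Retn*) were higher by 2-fold or more, where 7.21% of all genes were. *Retn* reached 100 on the *Fbln5*-/- array only (449.1, and 34.8 on WT), at least 4.49-fold higher. The summed signal of the 4 with that of the 3 unmeasured genes was 11219 on the *Fbln5*-/- array and 2825 on the WT array. Beside this and the sums below, the sum over all genes with a probe set was 1.10-fold higher on the *Fbln5*-/- array. Of 6 Schwann cell markers, 3 were measured (*Pmp22*, *Mbp* and *Sox10*) and none differed 2-fold, with a summed signal of 4986 on the *Fbln5*-/- array and 3907 on the WT array. The part of either cell type in the *S100b* signal was not tested. *S100a5* was under 100 on both arrays (32.1 on *Fbln5*-/- and 37.5 on WT), as was *S100a7l2* (3.91 and 1.85 in the same order). *S100a2*, *S100a7a* and *S100z* had no probe set of their own in the annotation used.

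The fused-type S100 proteins carry an S100 domain at the start of a long repetitive chain and build the keratin matrix and envelope of cornified cells. All 3 that were measured passed 2-fold upward on the *Fbln5*-/- array, where 7.21% of all genes did. *Hrnr*, hornerin, had 5556 on the *Fbln5*-/- array and 321.0 on the WT array, 17.3-fold higher. *Rptn*, repetin, had 11249 on the *Fbln5*-/- array and 2573 on the WT array, 4.37-fold higher. *Flg*, filaggrin, had 2781 on the *Fbln5*-/- array and 678.7 on the WT array, 4.10-fold higher. These 3 ratios exceeded those of *S100a8* and *S100a9*. *Tchh* and *Tchhl1*, trichohyalin and its relative, were under 100 on both arrays, with 52.8 and 3.91 on the *Fbln5*-/- array and 24.5 and 31.4 on the WT array. *Crnn* and *Flg2* had no probe set of their own in the annotation used, and 2 dim probe sets of *Rptn* were under 100 on both arrays.

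The gene order on chromosome 3 set the S100 genes apart by position. From *S100a1* to *S100a10* the GRCm38.p6 gene table lists 70 protein-coding genes, of which 42 were measured. The 7 measured genes from *S100a1* to *S100a6*, the first block, had log2 ratios from −0.85 to 0.16 and none was 2-fold higher. *S100a8* and *S100a9* come next. Of the 32 measured genes between *S100a9* and *S100a11*, 24 were higher by 2-fold or more (23 with a floor of 100 on every signal). None was lower by as much. Across all genes measured, 7.21% were 2-fold or more higher, and 5.8% with that floor. The 24 include 14 late cornified envelope genes, whose probes may share targets, so they are not all separate readings. *S100a10*, at the far end beyond *Rptn*, had a log2 ratio of −0.13. The stretch was laid out after the ratios were seen.

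Within that stretch the late cornified envelope genes differed most. Of 15 measured, 14 were at least 2-fold higher (13 with the floor of 100), with a median log2 ratio of 3.91. *Lce1c*, which had the highest ratio and was picked after the values were seen, had 6638 on the *Fbln5*-/- array and 160.6 on the WT array. These genes include close copies whose probes may share targets, so the value of any 1 of them is uncertain. Of 8 small proline-rich genes measured, 2 passed 2-fold upward, *Sprr2i* (2.28-fold) and *Sprr2k* (2.80-fold), and the median log2 ratio was 0.53. For both families the share of all genes past 2-fold upward was 7.21%, and 5.8% with the floor. *Lor*, loricrin, the nearest measured gene beyond *S100a9*, had 15708 on the *Fbln5*-/- array and 12394 on the WT array. *Ivl*, involucrin, had 1341 on the *Fbln5*-/- array and 520.9 on the WT array.

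Outside the complex, the 10 measured genes before *S100a1* had a median log2 ratio of 0.15, with none at least 2-fold higher and 1 lower (0 with the floor of 100). The 10 measured genes after *S100a10* had a median of 0.50, with 3 at least 2-fold higher and none lower. Over all genes measured the median was 0.16, with 7.21% at least 2-fold higher and 4.77% at least 2-fold lower. Among the stretches compared, the higher ratios were thus densest between *S100a8* and *Rptn*.

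**Figure D3:**
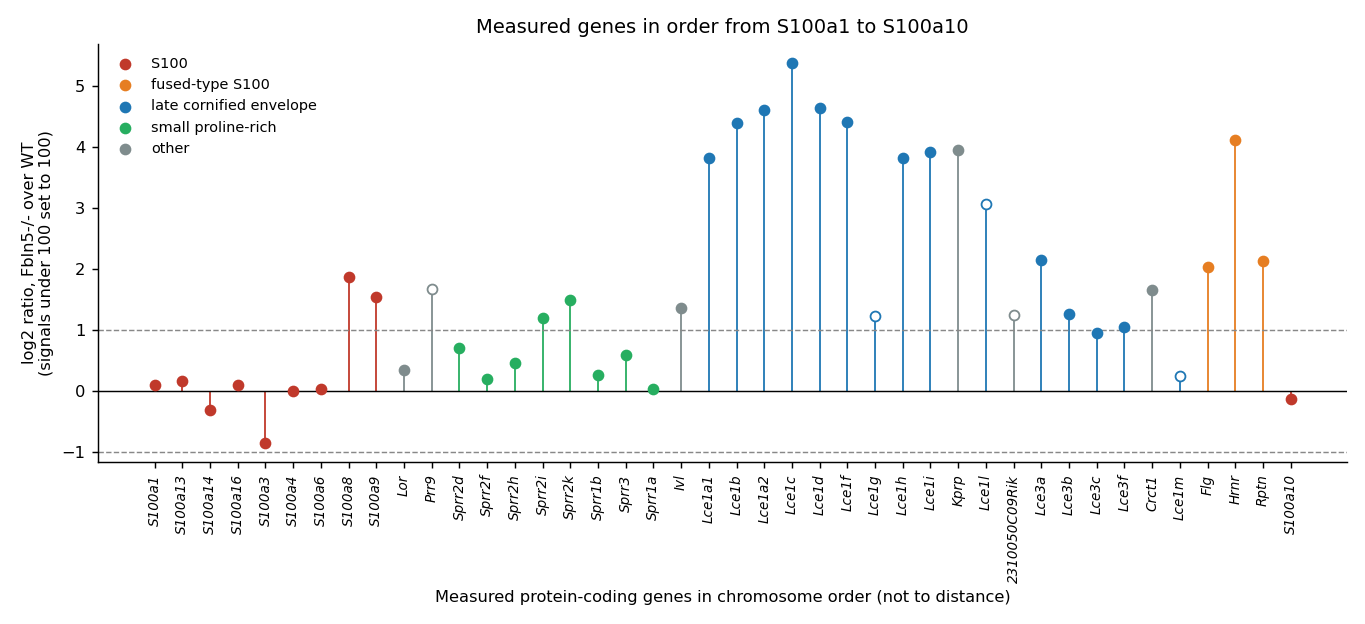
Log2 ratio (*Fbln5*-/- over WT, signals under 100 set to 100) of the 42 measured protein-coding genes in chromosome order from *S100a1* to *S100a10*; colours give gene families, open circles are bounds for genes under 100 on 1 array, and dashed lines mark 2-fold. The 7 genes on the left and *S100a10* on the right lie below 0.2, and the late cornified envelope genes reach 5.37.

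The annexin list held 9 genes of the family, not all of it. The 8 of these that were measured were within 2-fold at the brightest probe set, with a median log2 ratio of −0.01. *Anxa9*, an annexin outside the list that was looked up after its value was seen, had 1382 on the *Fbln5*-/- array and 412.6 on the WT array, a log2 ratio of 1.74. *Anxa2*, which binds S100A10, had 17519 on the *Fbln5*-/- array and 17167 on the WT array at its brightest probe set. A dimmer probe set of *Anxa2* had 34.2 on the *Fbln5*-/- array and 197.1 on the WT array, at least 1.97-fold lower. *Anxa1*, which binds S100A11, had 17214 on the *Fbln5*-/- array and 14695 on the WT array (0.23). The lowest on the list was *Anxa5*, a phosphatidylserine binder, with a log2 ratio of −0.55.

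Of 11 other partners measured, 2 passed 2-fold upward (1 with the floor of 100) and 2 downward, where 7.21% and 4.77% of all genes did. *Ahnak*, a large scaffold bound by the S100A10 and annexin A2 complex, had a log2 ratio of 0.20, and *Myh9*, the myosin heavy chain bound by S100A4, one of 0.17 at its brightest probe set and −0.57 to 0.60 at the others. *Cacybp*, the calcyclin-binding protein named for S100A6, had 3120 on the *Fbln5*-/- array and 4287 on the WT array (−0.46). *Ppp5c*, a phosphatase that S100 proteins bind, had 804.7 on the *Fbln5*-/- array and 2406 on the WT array. All 3 of its probe sets were lower, by 2.99-fold, 4.13-fold and 10.4-fold.

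The leaderless ligands released with S100A13 went opposite ways, but at low signals, and *Il1a* was within 2-fold with the floor of 100. *Fgf1*, acidic fibroblast growth factor, had 113.8 on the *Fbln5*-/- array and 252.4 on the WT array, 2.22-fold lower, and its next probe set was 2.04-fold lower. *Il1a*, interleukin-1 alpha, had 148.1 on the *Fbln5*-/- array and 65.7 on the WT array, at least 1.48-fold higher. *Plat*, the plasminogen activator that cell surface S100A10 can bind, had 717.7 on the *Fbln5*-/- array and 222.6 on the WT array, 3.22-fold higher.

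Of 9 genes for receptors of released S100 proteins and their signaling partners, 8 were measured. *Ager*, which encodes RAGE, was the exception, under 100 on both arrays at both of its probe sets (at most 12.0 on *Fbln5*-/- and 17.9 on WT). *Tlr4* had 329.3 on the *Fbln5*-/- array and 235.6 on the WT array at its brightest probe set (log2 ratio 0.48), and the next had a log2 ratio of 0.03. *Ly96*, which encodes its co-receptor MD-2, had 586.6 on the *Fbln5*-/- array and 342.5 on the WT array (0.78). *Cd14*, the lipopolysaccharide co-receptor, was 2.29-fold higher, with 1033 on the *Fbln5*-/- array and 451.9 on the WT array.

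*Cd36*, a scavenger receptor that adipocytes also express, was 3.18-fold higher, with 601.7 on the *Fbln5*-/- array and 189.0 on the WT array. *Bsg*, basigin, which binds S100A9, had 3889 on the *Fbln5*-/- array and 7376 on the WT array (−0.92). The log2 ratio of *Alcam*, a cell adhesion molecule, was 0.70 at the brightest probe set, and that of *Mcam*, another, was 0.68. *Myd88*, which is on the list as the cytosolic adaptor of *Tlr4* and is not a receptor, had a log2 ratio of −0.15. Over the 8 genes measured the median log2 ratio was 0.69, against 0.16 over all genes. They included 2 past 2-fold upward and none downward, where 7.21% and 4.77% of all genes were.

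Neutrophils carry much *S100a8* and *S100a9*, so their other markers are given beside both genes. Of 14 neutrophil markers, 11 had a probe set, 7 were measured, 1 passed 2-fold upward and 4 downward. With the floor of 100 these counts were 1 and 2, and the shares of all genes were 5.8% and 3.95%. The granule genes *Camp* (27.4 on *Fbln5*-/- and 111.2 on WT) and *Ngp* (47.5 and 124.7 in the same order) were under 100 on the *Fbln5*-/- array. *Elane*, *Mpo*, *Mmp8* and *Cxcr2*, which encode granule enzymes and a chemokine receptor, were under 100 on both arrays, at 14.4 to 91.3 on *Fbln5*-/- and 8.27 to 71.9 on WT. The upward call was *Lcn2*, a granule gene that epithelium also makes, with 2440 on the *Fbln5*-/- array and 1076 on the WT array. *Csf3r*, the granulocyte colony-stimulating factor receptor, had 196.1 on the *Fbln5*-/- array and 150.4 on the WT array. *Il1r2*, a decoy receptor for interleukin-1, had 2446 on the *Fbln5*-/- array and 8791 on the WT array. *Itgam*, an integrin of myeloid cells, had 76.4 on the *Fbln5*-/- array and 433.8 on the WT array. Neutrophil markers thus differed in both directions, with more past 2-fold downward than upward. The median log2 ratio of the 7 measured was −1.39, and −0.15 with the floor of 100, against 0.16 and 0.15 over all genes. The summed signal of the 11 genes was 20589 on the *Fbln5*-/- array and 25261 on the WT array, of which *Ltf*, lactoferrin, an estrogen-responsive gene of the epithelium too, gave 15164 and 14452 in that order.

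Macrophage markers were mixed. Of 10 measured, *Mrc1* and *Cd163* passed 2-fold upward and *C1qa* downward, and the summed signal was 14984 on the *Fbln5*-/- array and 13742 on the WT array. The probe sets of *C1qb*, which encodes another chain of the same complex, had log2 ratios of 0.14, 0.47 and 0.67. Of 10 fibroblast markers, 1 passed 2-fold upward, *Dpt*, with a summed signal of 83909 on the *Fbln5*-/- array and 66322 on the WT array. Beside the counts of both lists, 7.21% of all genes were 2-fold or more higher and 4.77% were 2-fold or more lower.

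Epithelial markers bear on *S100a8*, *S100a9*, *S100a14* and *S100a16*, which stratified epithelium expresses. The 8 basal markers were all within 2-fold at the brightest probe set, with a summed signal of 72813 on the *Fbln5*-/- array and 65389 on the WT array. Dimmer probe sets of *Trp63* were not level. Among them were a 2.78-fold decrease (104.6 on *Fbln5*-/- and 290.5 on WT), a decrease of at least 2.86-fold and an increase of at least 1.29-fold. Of 14 suprabasal and cornified markers, *Ivl*, *Tgm3* and *Lce1a1* passed 2-fold upward and none downward, with a summed signal of 168069 on the *Fbln5*-/- array and 139406 on the WT array. A dimmer probe set of *Tgm3* was 1.77-fold higher (3267 on *Fbln5*-/- and 1850 on WT). *Tgm1* had the lowest log2 ratio of the list, −0.78. Across all genes, 7.21% were 2-fold or more higher, and the summed signal was 1.10-fold higher on the *Fbln5*-/- array. The differentiation keratins *Krt1*, *Krt10* and *Krt13* had log2 ratios of 0.13, 0.04 and 0.08. Their signals were 13289 or more on both arrays, near the top of the scale, where compression of ratios was not tested.

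Of 11 markers of activated or inflamed epithelium measured, 5 passed 2-fold upward (4 with the floor of 100) and none downward. Across all genes, 7.21% passed upward (5.8% with the floor). The summed signal of the 11 was 65558 on the *Fbln5*-/- array and 54005 on the WT array. The stress keratins *Krt6a*, *Krt6b* and *Krt16* had log2 ratios of 0.19, 0.10 and 0.15. These keratins also lie near the top of the scale, at 12713 or more on both arrays. Antimicrobial genes were among the 5. *Defb3*, a beta-defensin, had 723.6 on the *Fbln5*-/- array and 51.1 on the WT array, at least 7.24-fold higher, and *Defb4* was 2.09-fold higher. *Lcn2*, lipocalin-2, which binds bacterial siderophores and is also a neutrophil gene, was 2.27-fold higher. *Il1b*, interleukin-1 beta, had 385.4 on the *Fbln5*-/- array and 177.3 on the WT array. The part of any of these cell populations in the *S100a8* and *S100a9* signals was not tested.

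**Figure D4:**
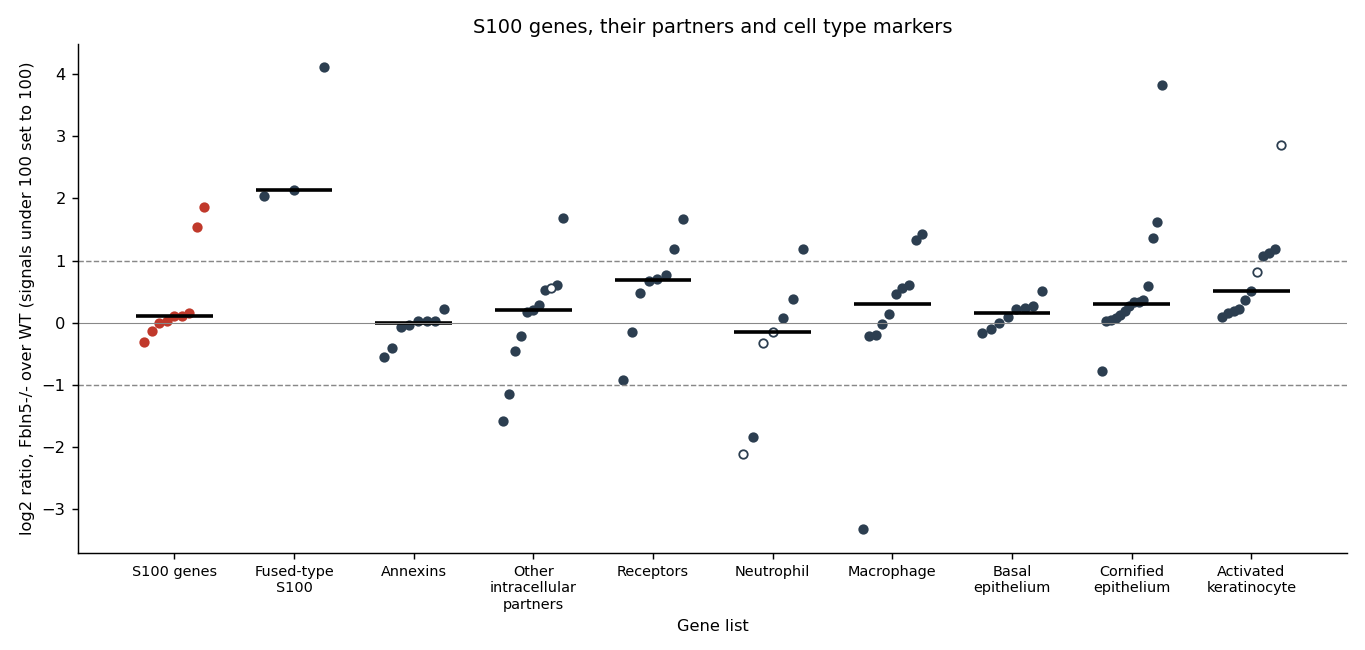
Log2 ratio (*Fbln5*-/- over WT, 1 array each, signals under 100 set to 100) of the measured genes in 10 lists; open circles mark bounds, where 1 array was under 100, black bars give medians and dashed lines mark 2-fold. The S100 genes (red) split into a pair above 1.5 and 7 near 0, and the annexin and basal epithelium medians (−0.01 and 0.16) lie close to 0.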

How the data were processed

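The authors deposited MAS5 signal intensities on a linear scale for 45101 probe sets of an Affymetrix mouse array, 1 array for *Fbln5*-/- and 1 for WT vagina. No MAS5 version or genome build is given in the sources used here. The methods mention a pair of animals per genotype and do not say how they map to the arrays. The mean without the lowest and highest 2% of probe sets was 500.0 on both arrays, and the median was 67.9 for *Fbln5*-/- and 71.8 for WT. Each array was scaled so that its median equalled the geometric mean of these medians (factors 1.03 and 0.972), after the per-chip scaling in the methods. The single 0, on the WT array, was replaced by 0.1. Probe sets with 1 gene symbol in the platform annotation (34958; 932 had several and 9211 were not listed) were named, with symbols updated through the GRCm38.p6 gene table (34754 matched). Control probe sets (64) were left out. The brightest probe set at 100 or more on at least 1 array stood for a gene, and 2-fold was counted. With 1 array per genotype there is no test and no error between animals, and the number of arrays limits the precision. The genes named were all S100 and fused-type S100 genes, partners past 2-fold or known to bind an S100 protein, the nearest measured chromosome neighbours, *Fbln5*, the control probe sets and, of each marker list, its counts, its sum, up to 4 bright genes and those near 0. Any other gene was named after its values were seen. The members and lists were chosen with earlier results of these data known, and the bands of 1.25-fold and of 500 on both arrays after the ratios were seen. The steps were run on simulated arrays with planted ratios in bright genes and less noise than the spread between probe sets of a gene. That run checks the computation only and gives no error for the differences reported. Alternatives were other scalings, filters, floors, probe set rules and thresholds of 1.5-fold and 3-fold. Detection calls were not used here. Python 3.11.15, numpy 2.4.6, pandas 2.3.3 and matplotlib 3.10.9 were used.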

Additional observations from a re-analysis of the deposited data

How the results depend on the processing

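The count of 2 S100 genes at least 2-fold higher was found under each of the 4 other scalings, the 3 other filters, both treatments of low signals and the mean over probe sets, and at 1.5-fold. It was 1 at 3-fold, where *S100a9* (2.91-fold) falls short, and 1 when _x_at, _s_at and _a_at probe sets were dropped, because *S100a8* has no other probe set and 6 genes were left. No S100 gene was at least 2-fold lower under any of these settings. The log2 ratio ranged from 1.76 to 1.87 for *S100a8* and from 1.44 to 1.54 for *S100a9*. That of *S100a14* ranged from −0.41 to −0.30 and was outside the 1.25-fold band under each of the 4 other scalings. The directions of *S100a1*, *S100a4* and *S100a6* depend on the scaling. Their log2 ratios were −0.0045, −0.10 and −0.07 when arrays were scaled to a median ratio of 1, taken over those probe sets with at least 100 on each array. That scaling moved the median of all genes to 0.05, against 0.16, and the S100 median to −0.0045, against 0.10. It also turned the split of all genes to 679 higher and 698 lower, against 861 and 569. The mean over probe sets turned it to 779 and 835. No paired analysis was possible because each genotype has 1 array. Signals under 100, which made up 55.6% of *Fbln5*-/- and 55.2% of WT probe sets, limit what can be read for *S100a5*, *S100a7l2*, *S100b* and *Ager*.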
